A study of Mus musculus with 2 samples.

Results

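Interferon-stimulated genes were followed across the cell types of ulcerated mouse skin in 2 single-cell RNA libraries. The set was a fixed list of 39 gene symbols out of the 33696 features counted, and all 39 were found. It was read as a group of 28 genes that are classically induced through the type I interferon receptor (the type I-like genes) and a group of 11 genes that interferon gamma induces strongly (the GBP group), namely the guanylate-binding proteins, the immunity-related GTPases, Cxcl9, Cxcl10 and Irf1. This division follows general knowledge, since many members answer to both kinds of interferon. The 2 libraries came from skin labelled as lesional UD skin, taken after 15 consecutive days on which the skin was tape stripped 40 to 50 times per day. One library came from a sample labelled wild type (WT), and the other from a sample labelled with whole-body overexpression of Has2, a hyaluronan synthase (TG). The promoter that drives Has2, the mouse strain and the animals' age and number are not given in the sources used here. With 1 library per genotype, genotype, animal and library cannot be told apart. The molecule fields of the labels differ as well, with total RNA for WT and polyA RNA for TG, and the libraries are numbered as replicates 1 and 2. No test between them was possible, and every interval below is an exact 95% interval that covers counting error only.

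Type I interferons act through the receptor chains Ifnar1 and Ifnar2 and the kinases Jak1 and Tyk2, which set off a complex holding Stat2 and Irf9 that binds the interferon-stimulated response element. Interferon gamma acts through Ifngr1 and Ifngr2, works through the gamma-activated sequence and raises Irf1, itself a transcription factor. In skin, plasmacytoid dendritic cells, macrophages and stromal cells can make type I interferon after wounding or infection, and T cells and natural killer cells are the usual sources of interferon gamma.

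To show how the members of both groups are laid out at their start sites, promoters were read from RefSeq (GRCm38.p6, a build other than the one the reads were counted on), each covering 250 bases before to 50 bases after a start site. A promoter was found for 29 of the 39 members, 19 of the 28 type I-like genes and 10 of the 11 in the GBP group. Ifi27l2a, Iigp1, Mx1, Mx2, Rtp4, Zbp1, Parp14, Dhx58, Oas2 and Usp18 had none in that table. A core of the interferon-stimulated response element, GAAA, any 2 bases and GAAA again on either strand, occurred in 11 of the 19 and in 7 of the 10, against 3.44% of all 32851 promoters. A form of the gamma-activated sequence, TTCNNNGAA, which is its own reverse complement, occurred in 4 of the 19 and in 4 of the 10, against 8.30% of all promoters. Both occurred in 0.454% of all promoters. A member was counted when any of its promoters held a match, whereas the background is a share of single promoters, 32851 from 27025 genes. These shares are therefore not in the same unit. The 2 motifs can overlap, as in the Bst2 promoter, where a TTCNNNGAA match from -136 to -128 runs into a response-element match from -130 to -121. A match describes these letters and is not a measured binding site.

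Sequences are given as examples for 7 members that each held a match, 3 type I-like and 4 of the GBP group. They do not stand for members without a match. Each runs from 130 bases before the start site to 1 base before it, 5′ to 3′ on the gene's strand. Matches of either motif are in capitals.
Isg15, chr4:156200819-156200948, minus strand: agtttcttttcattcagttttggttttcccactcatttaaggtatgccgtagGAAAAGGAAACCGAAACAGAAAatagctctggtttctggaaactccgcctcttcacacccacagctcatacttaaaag
Ifit1, chr19:34640759-34640888, plus strand: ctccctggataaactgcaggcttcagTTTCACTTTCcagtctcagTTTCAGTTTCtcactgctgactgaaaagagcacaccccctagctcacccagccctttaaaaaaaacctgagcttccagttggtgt
Oas1a, chr5:120907526-120907655, minus strand: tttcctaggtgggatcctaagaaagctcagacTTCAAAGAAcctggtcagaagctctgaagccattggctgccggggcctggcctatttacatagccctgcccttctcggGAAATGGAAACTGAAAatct
Irf1, chr11:53769884-53770013, plus strand: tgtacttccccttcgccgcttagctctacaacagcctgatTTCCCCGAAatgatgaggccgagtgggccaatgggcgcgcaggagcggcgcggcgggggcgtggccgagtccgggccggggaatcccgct
Igtp, chr11:58199426-58199555, plus strand: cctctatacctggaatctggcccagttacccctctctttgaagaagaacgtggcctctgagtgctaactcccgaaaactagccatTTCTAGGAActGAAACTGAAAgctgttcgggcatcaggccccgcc
Gbp7, chr3:142530206-142530335, plus strand: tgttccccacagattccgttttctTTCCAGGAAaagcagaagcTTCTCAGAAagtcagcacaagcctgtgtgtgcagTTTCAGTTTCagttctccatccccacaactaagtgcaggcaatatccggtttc
Gbp2, chr3:142620533-142620662, plus strand: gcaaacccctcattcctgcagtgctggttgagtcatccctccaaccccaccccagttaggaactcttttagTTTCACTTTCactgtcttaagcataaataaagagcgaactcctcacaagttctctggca
Isg15 had 3 overlapping response-element matches and Ifit1 had 2 on the opposite strand. Oas1a had a gamma-activated match upstream of 2 overlapping response-element matches. Irf1 had a gamma-activated match and no response-element match in this window. Igtp had 1 match of each motif, Gbp7 had 2 gamma-activated matches and 1 response-element match, and Gbp2 had 1 response-element match.

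The WT library held 16837 cells after filtering and the TG library 14415, with a median of 4348 and 4485 unique molecular identifiers (UMIs) per cell, and 79 barcodes occurred in both. Has2 itself was at 71.5 and 85.8 counts per 1000000 UMIs (CPM) over all kept cells, a ratio of 1.20 (1.17 to 1.23), and it was lower in TG fibroblasts, 145 against 182 CPM, and higher in TG keratinocytes, 342 against 189.5 CPM, and endothelial cells, 30 against 14 UMIs. In neutrophils it had 7 and 43 UMIs and in macrophages 12 and 64. Whether transcripts of the transgene were counted is not given in the sources used here, so the label is used below only as a name. Cells were assigned to classes by marker genes. Neutrophils (6441 and 5313 cells), macrophages or monocytes (5047 and 4213), fibroblasts (2303 and 2446), endothelial cells (227 and 222) and T cells (207 and 113) were the classes with enough cells for most members. Median UMIs were 3075 and 2074 in neutrophils, 8426 and 7256 in macrophages, 18471 and 24689 in fibroblasts, 12943 and 13274 in endothelial cells and 4078 and 3445 in T cells. In endothelial cells all 5 check markers that the gate did not use were at least 2-fold above the other classes in both libraries, and their summed level was 1198 and 1544 CPM against 9.83 and 11.7 CPM elsewhere. Levels below are CPM of a class, that is, UMIs of a gene per 1000000 UMIs of all cells of that class, WT first, and a ratio is TG over WT unless stated. A UMI counts 1 molecule at its 5′ end, so levels of different genes are molecule counts that no gene length enters.

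Summed over the 28 type I-like genes, macrophages were highest of the 5 large classes, at 3213 (3197 to 3230) CPM in WT and 2552 (2536 to 2569) in TG. Neutrophils followed at 1606 and 1620 CPM, fibroblasts at 1079 and 959 CPM, and T cells at 727 and 1022 CPM. Endothelial cells were lowest of the 5 in WT and in TG, at 505 (485 to 526) and 854 (825 to 883) CPM. In keratinocytes, a class of 19 and 173 cells, the sum was 93.3 and 69.1 CPM, the lowest of the classes summed. Natural killer, B or plasma, skeletal muscle and melanocyte classes were gated but not summed. A single gene, Ifi27l2a, which encodes a small membrane protein, held 52.1% and 43.7% of the macrophage sum, and Bst2, the tetherin that holds budding virus at the cell surface, held 33.1% and 33.0% of the endothelial sum. Without Ifi27l2a and Bst2, neutrophils and macrophages both stood at 1285 CPM in WT, with 1377 against 1149 CPM in TG. The same 26 genes gave 567 and 503 CPM in fibroblasts and 325 and 551 CPM in endothelial cells.

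**Figure D1:**
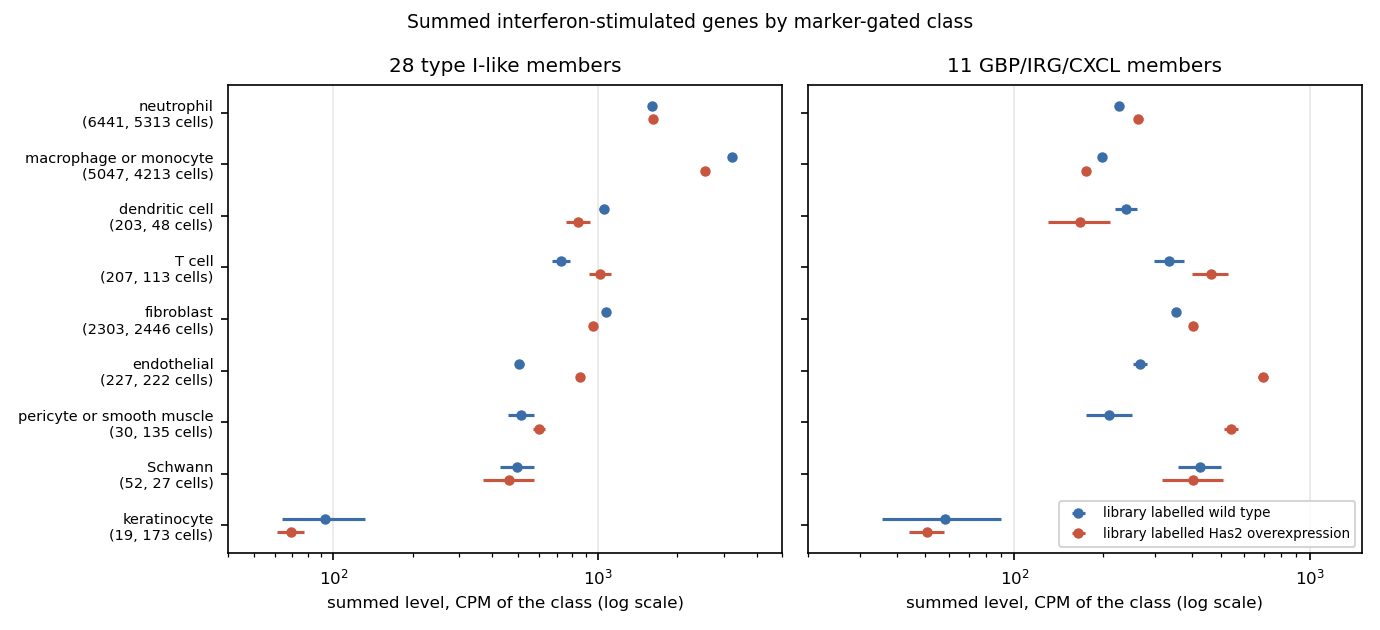
Summed level of the type I-like genes and of the GBP group in each cell class, in CPM on a log axis, with exact 95% counting intervals, for the WT and TG libraries. The type I-like sum is 3213 and 2552 CPM in macrophages and 505 and 854 CPM in endothelial cells, while the GBP group is at 199 and 174 CPM in macrophages and at 266 and 694 CPM in endothelial cells.

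The GBP group was ordered differently. Its sum was lowest of the 5 classes in macrophages, at 199 (195 to 203) and 174 (170 to 179) CPM, and next lowest in neutrophils, at 225 and 263 CPM. Fibroblasts stood at 353 and 403 CPM and T cells at 334 and 462 CPM. Endothelial cells went from 266 (252 to 282) CPM in WT, below both, to 694 (667 to 720) CPM in TG, above both. Cxcl10, a chemokine for T cells that carry Cxcr3, held 42.9% and 30.2% of the fibroblast sum. Iigp1, an immunity-related GTPase that attacks the vacuoles of intracellular parasites, held 22.3% and 22.6% of the endothelial sum. Irf1 held 46.3% and 64.3% of the neutrophil sum.

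The balance of both groups within a class was therefore read as the share of type I-like UMIs among the UMIs of all 39 members. It was 94.2% and 93.6% in macrophages and 87.7% and 86.1% in neutrophils, so the myeloid classes sat at the type I-like end in both libraries. Fibroblasts were at 75.4% and 70.4%, and T cells at 68.5% and 68.9%. Endothelial cells were at 65.5% (63.9 to 67.1) in WT and 55.2% (53.9 to 56.5) in TG. Without Ifi27l2a and Bst2 the share was 86.6% and 86.8% in macrophages, 85.1% and 84.0% in neutrophils and 55.0% and 44.3% in endothelial cells. Of the smaller classes, Schwann cells were at 53.9% and 53.55% with all members, and pericytes or smooth muscle cells at 71.0% and 52.6%. Keratinocytes were at 61.5% and 57.8%, and plasmacytoid dendritic cells at 87.7% and 89.8%.

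Members of the type I-like group were not highest in the same class. Over the 5 large classes, 10 of the 28 were highest in macrophages in both libraries, 7 in neutrophils, 2 in endothelial cells, 1 in fibroblasts and 1 in T cells, and 7 changed class between libraries. Of the 11 in the GBP group, 5 were highest in T cells in both libraries, 1 each in neutrophils, fibroblasts and endothelial cells, and none in macrophages. The share of all genes that are highest in each class was not counted, and the T cell levels rest on 207 and 113 cells.

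**Figure D2:**
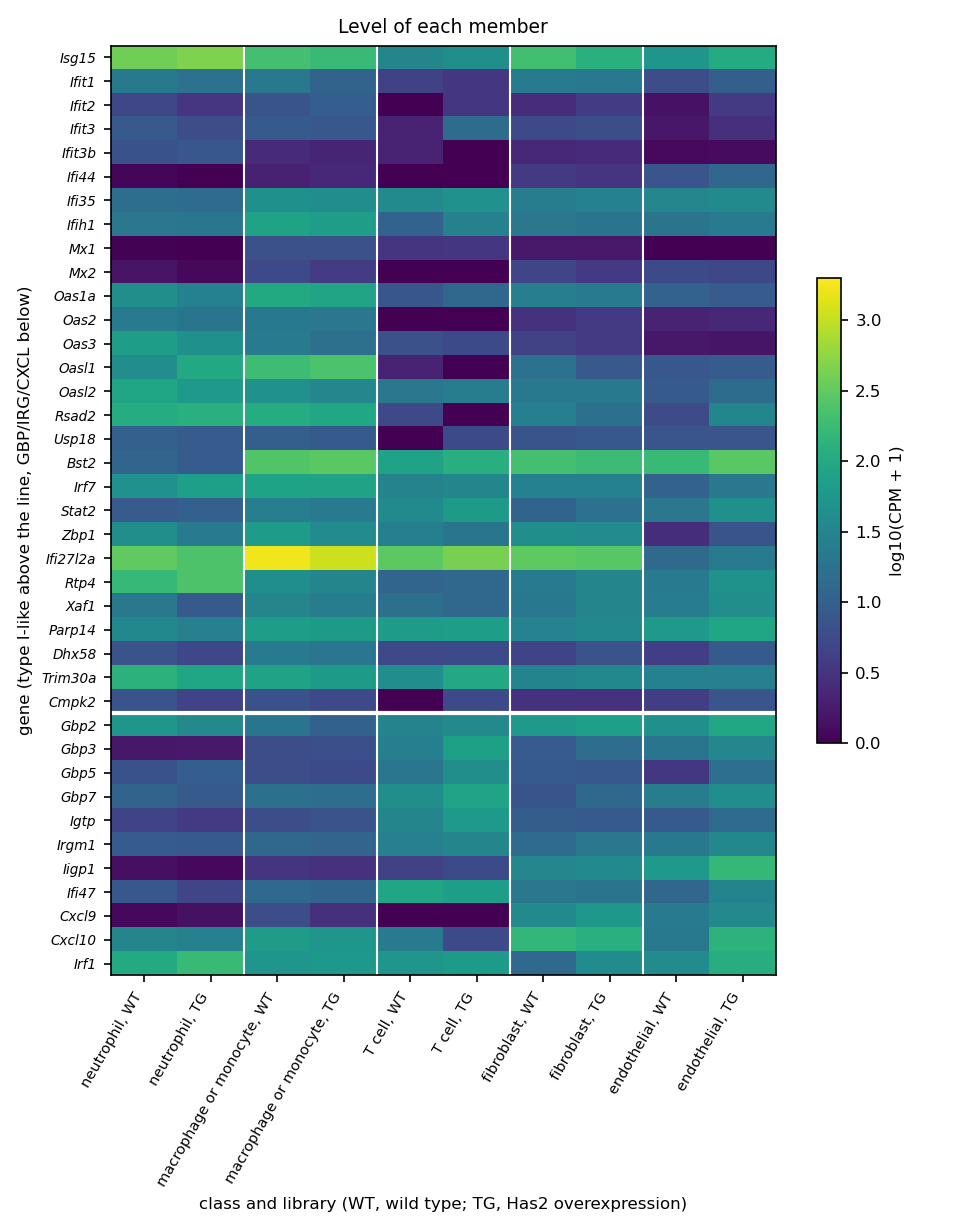
Level of each of the 39 members, as log10 of CPM plus 1, in 5 cell classes of the WT and TG libraries. Ifi27l2a is the brightest row of the map in macrophages, at 1674 and 1116 CPM, where brighter colours are higher levels. Iigp1 is near 0 in neutrophils and macrophages and at 59.4 and 157 CPM in endothelial cells.

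Isg15, a ubiquitin-like protein that is attached to other proteins, was at 382 and 460 CPM in neutrophils and at 202 and 172 CPM in macrophages. It was at 202 and 124 CPM in fibroblasts and at 53.8 and 107 CPM in endothelial cells. Neutrophils thus held the highest level of Isg15 in both libraries, and endothelial cells stood below macrophages and fibroblasts in both. Usp18, the protease that removes Isg15 and dampens the receptor, was between 6.19 and 9.38 CPM in these 4 classes in both libraries.

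Rsad2 (viperin, which makes a chain-terminating nucleotide) was at 110.3 and 123 CPM in neutrophils, 109 and 95.4 CPM in macrophages, 25.7 and 15.3 CPM in fibroblasts and 4.77 and 32.1 CPM in endothelial cells. Cmpk2, a mitochondrial nucleotide kinase that lies beside Rsad2, was low throughout, between 1.996 and 6.52 CPM in these 4 classes. Oas1a, one of the synthases whose product activates RNase L, was at 98.6 and 84.5 CPM in macrophages and 9.98 and 7.83 CPM in endothelial cells. Oas3, of the same family, was a neutrophil gene here, at 68.5 and 44.6 CPM against 21.1 and 15.5 CPM in macrophages and 0.651 and 0.522 CPM in endothelial cells. Oas2 lay close in both myeloid classes, at 22.4 and 18.1 CPM in neutrophils and 20.5 and 19.5 CPM in macrophages. Oasl2 was also highest in neutrophils, at 87.4 and 57.9 CPM. Oasl1, a relative that holds back Irf7 translation, was highest in macrophages, at 186 and 231 CPM, with 40.1 and 99.9 CPM in neutrophils. Genes of the Oas, Ifit and Gbp families have near-identical stretches, and reads shared by copies could have been dropped or divided in the counting, so the levels of single copies, above all Ifit3 and Ifit3b, are uncertain.

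The Ifit genes, which bind foreign RNA ends, were modest outside myeloid cells and fibroblasts. Ifit1 was at 20.7 and 15.9 CPM in neutrophils, 19.8 and 10.4 CPM in macrophages, 21.6 and 20.8 CPM in fibroblasts and 4.99 and 8.87 CPM in endothelial cells. Ifit2, Ifit3 and Ifit3b did not pass 8.72 CPM in any of these 4 classes. Of the dynamin-like GTPases, Mx1 was at 5.65 and 5.57 CPM in macrophages and had 0 UMIs in endothelial cells of both libraries, where a count of 0, taken to allow 3 counts, allows up to 0.651 and 0.783 CPM. Mx2 was at 4.56 and 4.17 CPM in endothelial cells and at 4.35 and 2.80 CPM in macrophages.

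Among sensors, Ifih1, which detects long double-stranded RNA, was at 80.7 and 70.3 CPM in macrophages and between 17.6 and 21.4 CPM in neutrophils, fibroblasts and endothelial cells. Its relative Dhx58 was also highest in macrophages, at 22.2 and 18.9 CPM. Zbp1, a sensor of Z-form nucleic acid that can start necroptosis, was at 64.3 and 38.6 CPM in macrophages, 41.6 and 22.7 CPM in neutrophils and 43.2 and 38.3 CPM in fibroblasts. In endothelial cells Zbp1 had 8 and 24 UMIs, or 1.74 and 6.26 CPM. All 3 sensors were highest in macrophages in both libraries, although the TG intervals of Zbp1 in macrophages (36.5 to 40.7 CPM) and fibroblasts (36.8 to 39.9 CPM) overlapped.

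Of the transcription factors, Irf7, which amplifies type I interferon, was at 82.1 and 79.6 CPM in macrophages, 45.8 and 72.5 CPM in neutrophils and 9.76 and 19.8 CPM in endothelial cells. Stat2 was at 36.2 and 62.0 CPM in T cells, 19.5 and 44.6 CPM in endothelial cells and 25 and 22.9 CPM in macrophages. Irf1 was at 104 and 169 CPM in neutrophils, 38.6 and 113 CPM in endothelial cells, 51.8 and 55.7 CPM in macrophages and 12.6 and 38.3 CPM in fibroblasts.

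Members with other roles differed in how they were spread over the classes. Rtp4, a chaperone of membrane receptors, was at 160.1 and 241 CPM in neutrophils and at most 47.2 CPM in macrophages, fibroblasts and endothelial cells. Trim30a, a ubiquitin-ligase family member, was at 129.6 and 89.0 CPM in neutrophils and 79.7 and 62.1 CPM in macrophages. Bst2 was at 254 and 287 CPM in macrophages, 209.7 and 179.6 CPM in fibroblasts and 167 and 281 CPM in endothelial cells, but at 10.9 and 8.26 CPM in neutrophils. Ifi44 was the one type I-like gene that was well above every other large class in endothelial cells, at 6.51 and 11.2 CPM against 1.04 and 1.33 CPM in macrophages and 3 and 0 UMIs in neutrophils. Parp14, an ADP-ribosyltransferase, Xaf1, a promoter of apoptosis, and Ifi35 were spread more evenly, with 57.5 and 87.6, 23.2 and 42.0, and 32.8 and 35.5 CPM in endothelial cells and 68.9 and 61.0, 30.7 and 24.0, and 44.6 and 39.9 CPM in macrophages.

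Of the guanylate-binding proteins, large GTPases that coat pathogens and their vacuoles, Gbp2 was at 43.8 and 92.1 CPM in endothelial cells, 57.9 and 71.2 CPM in fibroblasts, 53.1 and 35.2 CPM in neutrophils and 18.3 and 9.67 CPM in macrophages. Gbp3 was at 18.0 and 32.9 CPM in endothelial cells and 25.3 and 73.5 CPM in T cells, and at 5 and 5.48 CPM in macrophages. Gbp7 was at 23.0 and 41.0 CPM in endothelial cells and 41.7 and 82.7 CPM in T cells. T cells thus led in Gbp3 and Gbp7, with endothelial cells next. Gbp5 was lower, at 2.39 and 14.9 CPM in endothelial cells and 18.7 and 41.3 CPM in T cells.

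The immunity-related GTPases did not share one class. Iigp1 was at 59.4 and 157 CPM in endothelial cells and 32.7 and 37.3 CPM in fibroblasts, but at 2.21 and 1.93 CPM in macrophages and at 8 and 2 UMIs in neutrophils. Irgm1, which regulates the others, was at 20.8 and 33.4 CPM in endothelial cells and 12.2 and 10.8 CPM in macrophages. Igtp was at 30.7 and 57.4 CPM in T cells against 7.59 and 13.04 CPM in endothelial cells. Ifi47 was likewise highest in T cells, at 85.6 and 68.9 CPM, with 11.3 and 29.5 CPM in endothelial cells. The contrast of endothelial with myeloid cells was thus widest in Iigp1.

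Both chemokines were highest in fibroblasts in WT among the 5 large classes. In Schwann cells, of which there were 52 and 27, Cxcl10 held 37.2% and 59.7% of a GBP sum of 425 and 402 CPM. Cxcl10 was at 151 and 122 CPM in fibroblasts, 65.8 and 53.8 CPM in macrophages and 20.4 and 133 CPM in endothelial cells. Cxcl9 was at 35.6 and 56.8 CPM in fibroblasts and 21.0 and 34.7 CPM in endothelial cells. In macrophages Cxcl9 was at 5.29 and 1.76 CPM, and a single cell held 66.8% and 65.6% of those UMIs. One endothelial cell held 54.6% of the Cxcl9 UMIs in WT and 21.1% in TG, and 38.3% and 20.8% of the Cxcl10 UMIs, so these chemokine levels rest on few cells.

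Endothelial cells were then set against macrophages within each library, calling a gene only when it was at least 2-fold higher, or at least 2-fold lower, in both. Of the 28 type I-like genes, all measured, 16 were lower and 1 was higher in endothelial cells, where 16.9% of 13519 genes were lower and 26.6% were higher. In the GBP group 4 of 11 were higher, a share not far from that of all genes, and 0 were lower. The median log2 ratio of endothelial over macrophage was -2.17 and -1.27 for the type I-like genes and 0.59 and 1.64 for the GBP group, beside 0.45 and 0.40 over all genes measured, so the GBP median was close to that of all genes in WT. As summed levels, the endothelial over macrophage ratio was 0.157 in WT and 0.335 in TG for the type I-like genes, and 1.34 and 3.97 for the GBP group.

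The lower genes were Ifit2, Ifit3, Ifit3b, Ifih1, Mx1, Oas1a, Oas2, Oas3, Oasl1, Oasl2, Rsad2, Irf7, Zbp1, Ifi27l2a, Dhx58 and Trim30a. Ifi27l2a had an endothelial over macrophage ratio of 0.00778 and 0.0192, and Oasl1 of 0.0373 and 0.0351. Rsad2 was at 0.0438 in WT and 0.336 in TG, and Oas1a at 0.101 and 0.0926. Isg15, at 0.266 and 0.620, passed the limit in WT only, and Bst2, at 0.657 and 0.980, in neither. Ifi44 was the gene that was higher, by 6.28 and 8.45 fold.

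**Figure D3:**
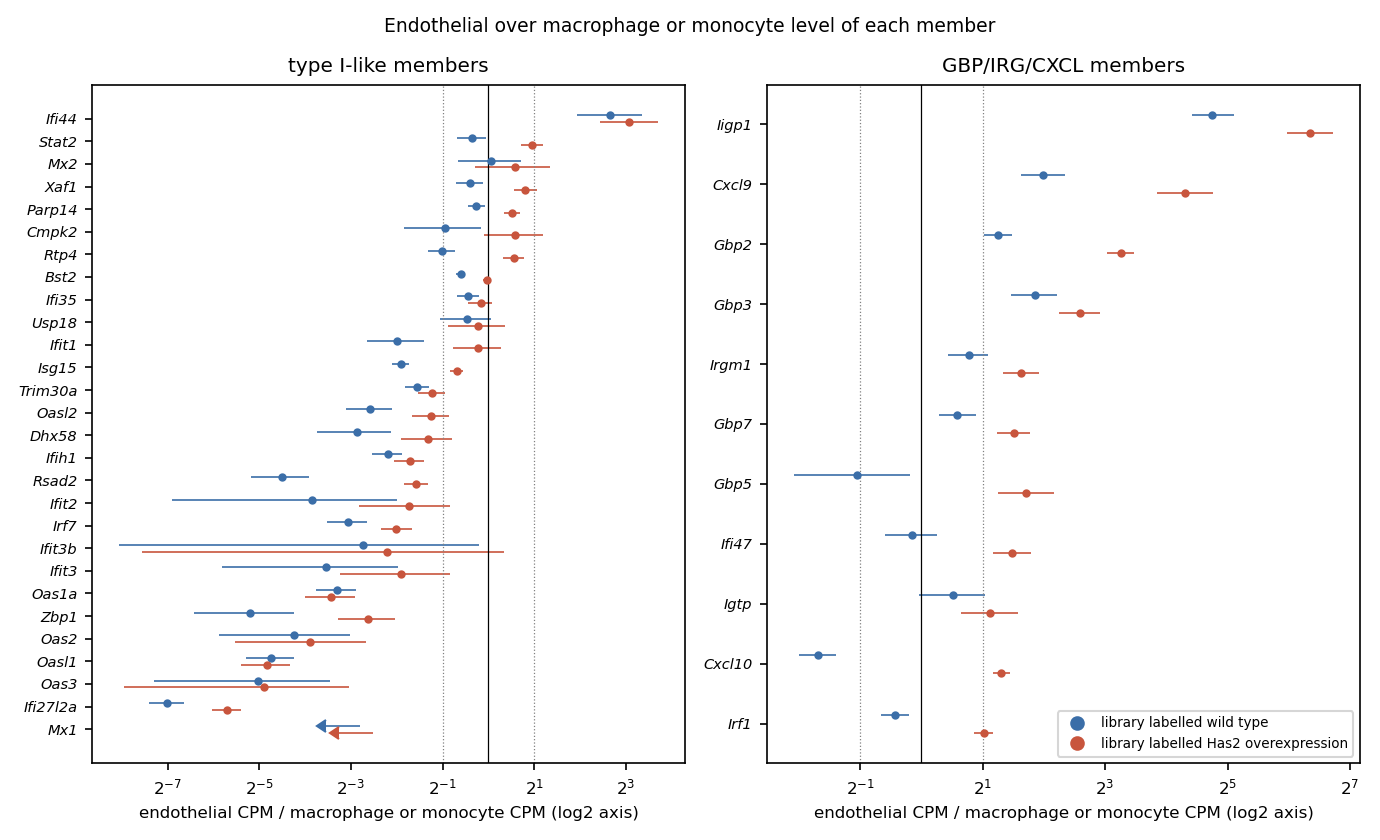
Ratio of endothelial to macrophage CPM for each member in the WT and TG libraries on a log2 axis, with exact 95% counting intervals, dotted lines at 2-fold and triangles where the endothelial count was 0. Most type I-like genes lie left of the lower line and Ifi27l2a lies farthest left among genes with endothelial UMIs, at 0.00778 and 0.0192, while Iigp1 lies farthest right at 26.9 and 80.9.

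The 4 higher genes of the GBP group were Gbp2 at 2.39 and 9.52 fold, Gbp3 at 3.60 and 5.99 fold, Iigp1 at 26.9 and 80.9 fold and Cxcl9 at 3.98 and 19.7 fold. Cxcl10 changed side between libraries, with an endothelial over macrophage ratio of 0.310 in WT and 2.47 in TG, and so did Irf1, at 0.745 and 2.02. Markers of the other class were present in the endothelial cells at a low summed level, with the macrophage list at 42.5 and 59.7 CPM and the fibroblast list at 60.5 and 178 CPM. Their part in these ratios was not tested.

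Against neutrophils the same split was seen against a different background, since 58.2% of 11873 genes were at least 2-fold higher in endothelial cells in both libraries and 17.4% were lower. Of 26 type I-like genes measured, 14 were lower and 4 were higher (Ifi44, Ifi35, Bst2 and Stat2). Isg15 had an endothelial over neutrophil ratio of 0.141 and 0.232, and Bst2 of 15.4 and 34.1. In the GBP group 6 of 11 were higher (Gbp3, Gbp7, Igtp, Irgm1, Iigp1 and Cxcl9) and 0 were lower. That share is close to the background of higher genes. The median log2 ratio was -2.23 and -1.55 for the type I-like genes and 1.10 and 2.30 for the GBP group, beside 1.82 and 1.85 over all genes, so the GBP group was below the gene-wide median in WT and above it in TG. The neutrophil marker list itself stood at 506 and 437 CPM in endothelial cells, and its part in these ratios was not tested.

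Fibroblasts, the other stromal class, lay nearer to endothelial cells. Of the 28 type I-like genes 8 were at least 2-fold lower in endothelial cells in both libraries, where 14.7% of 14676 genes were lower, and 2 (Ifi44 and Parp14) were higher, where 17.7% were. In the GBP group Gbp3, Gbp7 and Irf1 were higher and 0 were lower. The endothelial over fibroblast ratio of Irf1 was 3.06 and 2.95, and that of Cxcl10 was 0.135 in WT and 1.09 in TG.

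Between libraries, the sums went in opposite directions in endothelial cells and in macrophages. In endothelial cells the type I-like sum was 1.69 times as high in TG as in WT (1.60 to 1.78) and the GBP sum 2.60 times as high (2.43 to 2.79). In macrophages the ratios were 0.794 (0.788 to 0.801) and 0.878 (0.850 to 0.908). In neutrophils they were 1.01 (0.991 to 1.03) and 1.17 (1.11 to 1.22), and in fibroblasts 0.889 (0.878 to 0.899) and 1.14 (1.12 to 1.16). These intervals hold for the 2 libraries, and how much other animals of either genotype vary was not measured. The macrophage GBP sum was lower in TG only in cells with all 3 C1q genes (2015 and 2426 cells), at 240 and 167 CPM. It was at 165 and 194 CPM in macrophages with none (2310 and 1266 cells), and at 167 and 172 CPM in those with 1 or 2. The type I-like sum was lower in TG in each of these subsets. This split was chosen with the data in view.

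**Figure D4:**
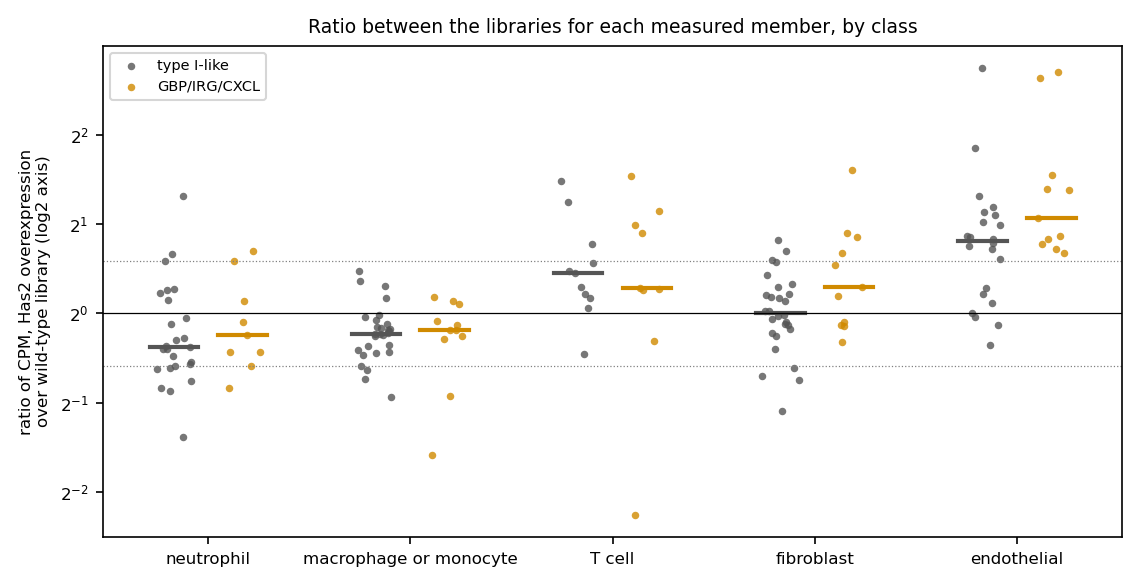
Ratio of TG to WT CPM of each measured member in 5 cell classes on a log2 axis, with bars at the medians of both groups and dotted lines at 1.5-fold. All 11 points of the GBP group lie above the upper line in endothelial cells, whereas in macrophages 24 of 28 type I-like and 8 of 11 GBP points lie below 1.

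At the level of single genes, 15 of the 22 type I-like genes measured in endothelial cells and 11 of 11 in the GBP group were at least 1.5-fold higher in TG, and none was lower, where 13.7% of 11340 genes were higher and 7.81% were lower. Their median log2 ratio was 0.80 and 1.07, beside 0.01 over all genes. At a minimum of 100 UMIs per gene, which fewer members reached, 9 type I-like genes were higher. The share of all genes was not counted at that minimum. The members farthest apart were Rsad2, with 22 and 123 endothelial UMIs and a ratio of 6.72 (4.25 to 11.1), Cxcl10, at 6.52 (5.23 to 8.22), and Gbp5, with 11 and 57 UMIs, at 6.23 (3.23 to 13.2). Irf1 had a ratio of 2.92 (2.45 to 3.495), Iigp1 of 2.63 (2.28 to 3.05), Ifi47 of 2.61 and Gbp2 of 2.10. Isg15 had a ratio of 1.99 (1.69 to 2.34), and Stat2 of 2.29. Genes of the type I-like group with little difference were Ifi35 at 1.08, Trim30a at 0.972, Mx2 at 0.916 and Oas1a at 0.784.

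More endothelial cells held a UMI of these genes in TG, at almost the same median depth. Iigp1 was found in 17.6% and 42.3% of endothelial cells, Isg15 in 33.9% and 48.7%, Cxcl10 in 4.85% and 19.4%, and Rsad2 in 7.05% and 17.6%. In keratinocytes, Isg15 was found in 5.20% of the 173 TG cells, at a median depth of 15350 UMIs. It had 0 UMIs in the 19 WT keratinocytes, at a median of 10721 UMIs, where a count of 0 allows up to 8.75 CPM. Whether keratinocyte Isg15 is free RNA, and the part of free RNA in the endothelial difference, were not tested. The median endothelial cell had 413 and 646 CPM of type I-like genes and 97.7 and 299 CPM of the GBP group, so the difference was not held by a few cells alone.

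The make-up of the endothelial class also moved between libraries. Selp (P-selectin), a marker of venules, was detected in 43.2% of WT and 68.5% of TG endothelial cells, while its summed level was 2717 and 2829 CPM. Lymphatic markers were higher in TG, with Ccl21a, a chemokine of lymphatic vessels, at 179 and 1433 CPM and Prox1, a lymphatic transcription factor, at 10.9 and 46.4 CPM. Cells with at least 2 lymphatic markers, 17 and 29, were set apart before the venular split, and their type I-like level was 474.5 and 743 CPM and their GBP level 322 and 479.8 CPM. In cells with at least 2 of the venular markers Ackr1, Selp and Sele, 77 in WT and 107 in TG, the ratio was 1.91 (1.78 to 2.05) for the type I-like sum and 2.66 (2.45 to 2.88) for the GBP sum. In the 109 and 55 remaining cells with none of the 3 it was 1.19 (1.06 to 1.33) and 2.77 (2.32 to 3.33). Among these cells 4 of 13 type I-like genes and 7 of 8 GBP-group genes that could be measured were at least 1.5-fold higher, and 1 type I-like gene was lower. The share of all genes past that limit was not counted in these cells. The GBP ratio was thus as large in these remaining cells as in venular cells, and the type I-like ratio was smaller in them. The split also followed depth, with a median of 31168 and 17490 UMIs in the venular cells and 7902 and 8765 in the remaining cells. Venular cells whose markers were not captured can therefore be among the latter. The vessel markers were chosen after the data were seen. The fibroblast marker list was higher in TG endothelial cells, 178 against 60.5 CPM, the macrophage list was at 59.7 against 42.5 CPM, and the T cell list was at 1.83 against 3.47 CPM, and their part in the difference was not tested.

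In macrophages 3 of 28 type I-like genes were at least 1.5-fold lower in TG (Ifit1, Mx2 and Zbp1) and 0 were higher, where 7.28% of 14549 genes were lower and 14.8% were higher. In the GBP group Gbp2, at 0.528, and Cxcl9, at 0.333, were lower and 0 were higher. In all, 24 of 28 and 8 of 11 ratios were under 1. Ifi27l2a contributed most to the lower sum, at 1674 against 1116 CPM, and Oasl1 was a gene with a ratio above 1, at 1.24.

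Neutrophils held differences in both directions. Of 25 type I-like genes measured, 7 were lower in TG (Ifit2, Oas1a, Oas3, Oasl2, Zbp1, Xaf1 and Cmpk2) and 3 were higher (Oasl1, Irf7 and Rtp4), where 16.9% of 11310 genes were lower and 13.5% were higher. Oasl1 had 40.1 CPM in WT and 99.9 CPM in TG, or 2.49 times as much (2.28 to 2.72), and Xaf1 at 19.7 and 7.58 CPM, a ratio of 0.384. In the GBP group Irf1 and Gbp5 were higher and Gbp2 and Ifi47 were lower, of 9 measured. Without Irf1, whose ratio was 1.62, the neutrophil GBP sum was 121 against 93.9 CPM, a ratio of 0.777, so its direction rested on that gene.

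Fibroblasts had Isg15, Mx2, Oasl1 and Rsad2 lower and Ifit2, Stat2 and Dhx58 higher among the 28 type I-like genes, where 8.51% of 16647 genes were lower and 19.7% were higher. Isg15 was at 202 and 124 CPM there, a ratio of 0.615. In the GBP group Gbp3, Gbp7, Cxcl9 and Irf1 were higher and 0 were lower. Irf1 had 12.6 CPM in WT and 38.3 CPM in TG, or 3.03 times as much (2.78 to 3.31), close to its ratio in endothelial cells. The fibroblast GBP sum did not keep its direction when every cell was weighted equally, at a ratio of 0.804.

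T cells were few. Of 11 type I-like genes measured in them, Ifih1, Stat2 and Trim30a were higher in TG and 0 were lower, and of 9 in the GBP group Gbp3, Gbp5, Gbp7 and Igtp were higher and Cxcl10, at 20 and 2 UMIs, was lower, where 12.1% of 7211 genes were higher and 14.3% were lower. Gbp3 was at 25.3 and 73.5 CPM and Gbp7 at 41.7 and 82.7 CPM. When the cell that held most UMIs of each gene was left out, 1 type I-like gene was higher and 2 were lower. Of the GBP group, 3 genes were then higher and 0 lower. The type I-like counts thus moved when single cells were left out. A gene with few UMIs, such as Cxcl10, could also fall below the minimum of 20 UMIs this way. Its loss from the count therefore does not show that its difference rested on single cells. The neutrophil marker list stood at 223 and 673 CPM in T cells, and its part in the difference between libraries was not tested.

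The share of cells with a high level was counted after every cell was thinned to 1000 UMIs, calling a cell high at 5 or more type I-like UMIs, with shallower cells left out (252 and 272 neutrophils, 120 and 88 macrophages, 268 and 124 fibroblasts, 11 and 5 endothelial cells). High cells made up 9.02% (8.31 to 9.76) and 9.96% (9.15 to 10.8) of neutrophils. In macrophages they were 22.1% (21.0 to 23.3) and 15.9% (14.8 to 17.1), and in fibroblasts 9.14% and 6.37%. Only 1 of 216 WT endothelial cells (0.463%, 0.0117 to 2.55) and 4 of 217 TG endothelial cells (1.84%, 0.505 to 4.65) were high. No keratinocyte was high, 0 of 18 and 0 of 166, which allows a share of up to 16.7% and 1.81% (3 counts of the total). When cells were not thinned and the limit was put on the same fraction of each cell's UMIs, the shares were 7.13% and 8.36% in neutrophils and 18.4% and 13.2% in macrophages. Leaving out Ifi27l2a and Bst2 brought macrophages to 5.74% and 5.21%, level with or below the 6.66% and 7.94% of neutrophils.

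**Figure D5:**
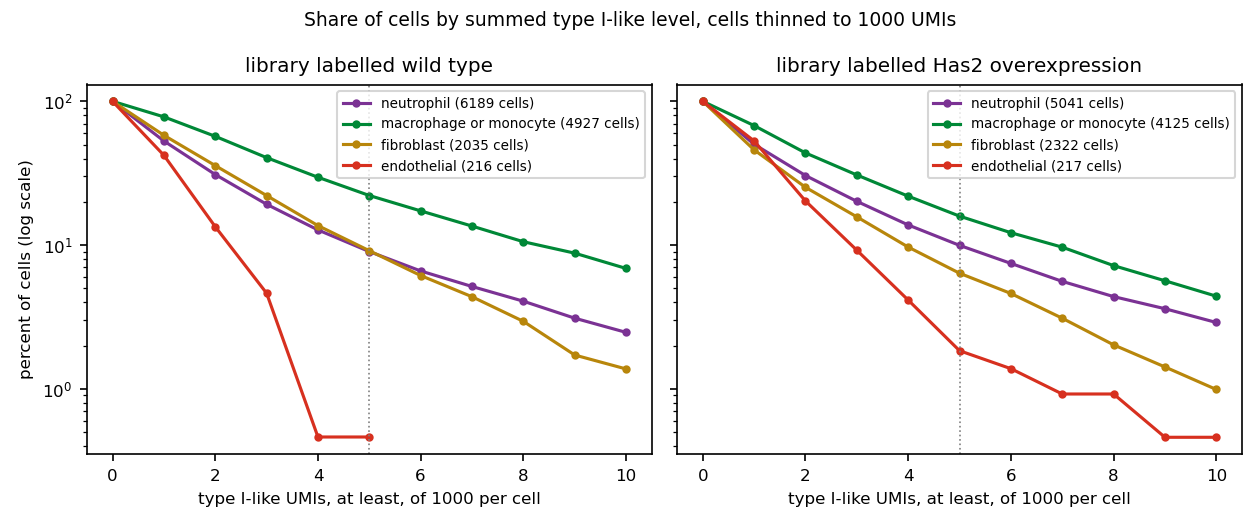
Percent of cells of 4 classes that hold at least a given number of type I-like UMIs out of 1000, in the WT and TG libraries, with a dotted line at 5. At that line macrophages are at 22.1% and 15.9%, neutrophils at 9.02% and 9.96%, fibroblasts at 9.14% and 6.37%, and endothelial cells at 0.463% and 1.84%.

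The top 5% of cells held 37.1% and 38.8% of the type I-like UMIs of neutrophils, against 26.4% and 28.4% in macrophages, 28.8% and 33.5% in fibroblasts, 25.8% and 28.4% in endothelial cells and 37.1% and 42.1% in T cells. Neutrophils and T cells thus had a larger part of these UMIs in few cells than the other 3 classes. In high neutrophils Isg15 was found in 73.3% and 77.1% of cells against 13.3% and 13.5% of the others, which the choice of high cells itself brings about. GBP-group genes, which that choice did not use, averaged 0.590 UMIs of 1000 per high neutrophil against 0.192 in the others in WT, and 0.462 against 0.234 in TG. In fibroblasts the averages were 2.56 against 0.375 in WT and 2.30 against 0.345 in TG. Fibroblast Cxcl10 was at 1054 UMIs per 1000 high cells against 151 per 1000 others in WT, and at 737 against 97.5 in TG. Irf1 did not go with the others in TG neutrophils, where it was found in 11.95% of high cells and 11.96% of the rest. The same held in macrophages, where it was in 4.495% of high cells against 5.47% in WT and 3.66% against 5.33% in TG. In WT neutrophils it was in 9.32% of high cells against 7.885%. In fibroblasts it was in 4.84% against 1.19% in WT and 3.38% against 2.99% in TG. At a limit of 3 GBP-group UMIs of 1000, 0.926% of WT and 10.6% of TG endothelial cells were high for that group.

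Genes that make, sense and relay interferon were read from a list of 35. Of the interferons, Ifnb1 was found in macrophages, with 52 and 35 UMIs (1.17 and 1.01 CPM), and in fibroblasts, with 77 and 25 UMIs (1.53 and 0.403 CPM), and had 0 UMIs in endothelial cells and neutrophils. Ifng had 9 and 2 UMIs in T cells, where 1 cell held 44.4% and 50.0% of them. Too few interferon transcripts were captured to set a source beside the member levels.

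Of the receptors, Ifnar1 was at 151 and 109 CPM in macrophages and 60.5 and 69.4 CPM in endothelial cells, and Ifnar2 at 224 and 192 CPM and 135 and 173 CPM. Ifnlr1, the specific chain of the receptor for type III interferon, was found mainly in neutrophils, at 36.1 and 18.8 CPM. Ifngr1 was at 462 and 705 CPM in T cells and at 96.5 and 109.5 CPM in endothelial cells.

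Of the 25 pathway genes measured in the contrast with macrophages, Jak1, Tlr3 and Sting1 were at least 2-fold higher in endothelial cells in both libraries, and Ifnb1, Il10rb, Ptpn6, Tlr7 and Tlr9 were lower, beside 26.6% and 16.9% of all genes. Sting1, the adaptor of cytosolic DNA sensing, was at 138 and 152 CPM in endothelial cells and 21.1 and 19.7 CPM in macrophages. Tlr3, a receptor for double-stranded RNA, was at 10.6 and 11.5 CPM against 1.31 and 2.19 CPM. Tlr7, which reads single-stranded RNA, was at 42.2 and 33.1 CPM in macrophages. Between libraries, 3 of 21 pathway genes measured in endothelial cells were at least 1.5-fold higher in TG (Il10rb, Irf8 and Socs3) and Aim2 was lower, shares near the 13.7% and 7.81% of all genes. Socs3, an inhibitor of cytokine receptors, stood at 110.4 CPM in WT and 251 CPM in TG, or 2.28 times as high (2.04 to 2.54). Irf9, a partner of Stat2, was at 23.9 and 34.2 CPM and did not pass that limit in endothelial cells, whereas Stat2 did. In macrophages Jak2 was lower and Socs1, Tlr3 and Mavs were higher, of 25 measured, beside 7.28% and 14.8% of all genes. In fibroblasts Ifnb1, Irf8 and Cgas were lower and 0 were higher, of 24, beside 8.51% and 19.7% of all genes.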

How the data were processed

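Single cells from 2 samples of lesional skin, 1 per genotype, were captured with a 10x Genomics 5′ kit, per the labels' protocols. The authors deposited filtered matrices of UMI counts, raw whole numbers per gene and barcode; Cell Ranger 9.0.1 and build GRCm39 are named in the submitters' processing notes. The WT matrix held 16999 barcodes and 143875454 UMIs, the TG matrix 14622 and 134917708. Cells with under 200 genes (137 and 150) or over 15% mitochondrial UMIs (25 and 57) were removed. A cell entered a class when it held at least 3 of the class's gate markers and their summed share of the cell's UMIs reached a class limit set with the data in view. Cells that passed several gates (870 and 636) were left out as possible doublets, and 1385 and 1024 passed none. Scrublet (scanpy 1.11.5) marked 0 cells at its automatic limit, so removing the 1156 and 855 highest scores, its expected number, was an alternative.

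For each class of each library, member UMIs were added up and divided by all UMIs of the class (CPM). Intervals are exact: Poisson for levels, conditional binomial for ratios and Clopper-Pearson for shares, at 95%. UMIs collapse amplified copies, but cells of 1 library are not replicates, so no test was run. A gene was measured between libraries, or between classes, when it had at least 20 UMIs on both sides together (between classes, in each library). Limits were 2-fold between classes and 1.5-fold between libraries. Alternatives changed the gate, doublets, total, cell weighting, depth, count minimum, list and high-cell limit. All members were named, with genes of the pathway list and marker genes only where a result turned on them. The members and lists were chosen with earlier results of these data known. The procedure was tested on simulated data. Python 3.11.15, numpy 2.4.6, scipy 1.17.1, pandas 2.3.3 and matplotlib 3.10.9 were used. Some pathway genes are not reported here.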

Additional observations from a re-analysis of the deposited data

Results flagged for a closer look

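The TG library was higher than the WT library in some cell classes and lower in others, and these summed ratios of TG over WT are listed for that reason. For the type I-like genes the ratio was 1.41 in T cells and 1.69 in endothelial cells, but 0.794 in macrophages and 0.889 in fibroblasts. For the GBP group it was 1.17 in neutrophils, 1.38 in T cells, 1.14 in fibroblasts and 2.60 in endothelial cells, but 0.878 in macrophages. With 1 library per genotype the difference between classes was not tested. Cells that passed no marker gate, 1385 in WT and 1024 in TG, entered none of the comparisons by class and also held type I-like transcripts, at 1009 CPM in WT and 673 CPM in TG.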

How the results depend on the processing

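No paired analysis was possible because each genotype had 1 library, and for the same reason no library could be left out. Of 148 alternative values of summed ratios 5 changed side of 1, namely the WT endothelial over neutrophil GBP ratio with equal cell weights and without top cells, the fibroblast GBP ratio of TG over WT with equal cell weights and with thinned cells, and the neutrophil GBP ratio without Irf1. The endothelial over macrophage ratios and the endothelial ratios of TG over WT kept their side of 1 in every alternative run. Leaving out top cells and splitting by venular markers (with cells of at least 2 lymphatic markers left out) were chosen after seeing the data. Where members fell below the minimum after thinning, fewer could be counted, and only 3 type I-like and 4 GBP members could be measured in endothelial cells. The endothelial and T cell values rest on few cells, and neutrophils hold few UMIs per cell. Values outside the main counting interval, and counts that moved by more than 1.5 times, follow by setting, WT before TG. With a stricter marker gate, the endothelial sum as a ratio was 0.320 in TG over macrophages for the type I-like genes. TG over WT stood at 0.818 in macrophages for the type I-like sum. Counts of members became 2 type I-like lower in fibroblasts (from 4) and 1 GBP lower in macrophages (from 2). Without the cells of highest doublet score, the endothelial sum as a ratio was 0.150 in WT over macrophages for the type I-like genes and 0.300 in WT over neutrophils for the type I-like genes. TG over WT stood at 0.788 in macrophages and 0.869 in fibroblasts for the type I-like sum and 1.08 in fibroblasts for the GBP sum. Counts of members became 1 GBP lower in macrophages (from 2). High cells were 0% in WT of endothelial cells. With mitochondrial and ribosomal protein genes left out of the total, the endothelial sum as a ratio was 0.174 and 0.357 over macrophages for the type I-like genes, 0.376 and 0.612 over neutrophils for the type I-like genes, 1.48 and 4.24 over macrophages for the GBP genes and 1.41 and 3.07 over neutrophils for the GBP genes. As a ratio, TG over WT was 0.869 in fibroblasts for the type I-like sum and 1.12 in fibroblasts for the GBP sum. With every cell weighted equally, the endothelial sum as a ratio was 0.167 and 0.399 over macrophages for the type I-like genes, 0.338 and 0.566 over neutrophils for the type I-like genes, 1.18 and 4.60 over macrophages for the GBP genes and 0.962 and 3.05 over neutrophils for the GBP genes. TG over WT stood at 1.05 in neutrophils, 0.734 in macrophages and 0.712 in fibroblasts for the type I-like sum and 1.10 in neutrophils, 0.804 in fibroblasts and 3.48 in endothelial cells for the GBP sum. Counts of members became 4 type I-like lower in neutrophils (from 7), 5 type I-like lower in macrophages (from 3), 1 type I-like lower in T cells (from 0), 0 type I-like higher in fibroblasts (from 3), 1 type I-like lower in endothelial cells (from 0), 1 GBP higher in neutrophils (from 2), 1 GBP lower in macrophages (from 2), 2 GBP lower in fibroblasts (from 0) and 1 GBP higher in fibroblasts (from 4). With cells thinned to 1000 UMIs, the endothelial sum as a ratio was 0.192 and 0.356 over macrophages for the type I-like genes, 0.386 in WT over neutrophils for the type I-like genes, 4.22 in TG over macrophages for the GBP genes and 1.07 and 2.87 over neutrophils for the GBP genes. TG over WT stood at 1.07 in neutrophils, 0.759 in macrophages, 0.697 in fibroblasts and 1.41 in endothelial cells for the type I-like sum and 1.06 in neutrophils, 0.836 in fibroblasts and 2.84 in endothelial cells for the GBP sum. Counts of members became 0 type I-like higher in endothelial cells than in macrophages (from 1), 2 type I-like higher in endothelial cells than in neutrophils (from 4), 1 type I-like higher in macrophages (from 0), 7 type I-like lower in fibroblasts (from 4), 0 type I-like higher in fibroblasts (from 3), 1 type I-like higher in endothelial cells (from 15), 1 GBP lower in endothelial cells than in neutrophils (from 0), 1 GBP higher in endothelial cells than in neutrophils (from 6), 0 GBP higher in neutrophils (from 2), 1 GBP lower in macrophages (from 2), 1 GBP higher in macrophages (from 0), 1 GBP higher in T cells (from 4), 4 GBP lower in fibroblasts (from 0) and 3 GBP higher in endothelial cells (from 11). With a minimum of 100 UMIs per gene, counts of members became 0 type I-like higher in endothelial cells than in macrophages (from 1), 0 type I-like higher in T cells (from 3), 9 type I-like higher in endothelial cells (from 15), 0 GBP lower in T cells (from 1) and 0 GBP higher in T cells (from 4). With a minimum of 1 UMI, counts of members became 3 type I-like lower in T cells (from 0) and 8 type I-like higher in T cells (from 3). Without Ifi27l2a, Bst2 and Irf1, the endothelial sum as a ratio was 0.253 and 0.479 over macrophages for the type I-like genes, 0.253 and 0.40 over neutrophils for the type I-like genes, 1.55 and 4.89 over macrophages for the GBP genes and 1.88 and 6.19 over neutrophils for the GBP genes. For TG over WT the ratio was 1.07 in neutrophils and 0.894 in macrophages for the type I-like sum and 0.777 in neutrophils, 0.809 in macrophages and 1.07 in fibroblasts for the GBP sum. Without the cell that held most UMIs of each gene, the endothelial sum as a ratio was 0.144 and 0.313 over macrophages for the type I-like genes, 0.288 and 0.494 over neutrophils for the type I-like genes, 1.17 and 3.64 over macrophages for the GBP genes and 0.995 and 2.42 over neutrophils for the GBP genes. As a ratio, TG over WT was 1.13 in T cells for the type I-like sum and 0.908 in macrophages and 2.82 in endothelial cells for the GBP sum. Counts of members became 2 type I-like lower in T cells (from 0), 1 type I-like higher in T cells (from 3) and 0 GBP lower in T cells (from 1). In cells with at least 2 venular markers, as a ratio, TG over WT was 1.91 in endothelial cells for the type I-like sum. In cells without venular markers, for TG over WT the ratio was 1.19 in endothelial cells for the type I-like sum. Counts of members became 1 type I-like lower in endothelial cells (from 0), 4 type I-like higher in endothelial cells (from 15) and 7 GBP higher in endothelial cells (from 11). At a limit of 3 UMIs in 1000, high cells were 19.2% and 20.2% of neutrophils, 40.6% and 30.7% of macrophages, 22.1% and 15.7% of fibroblasts and 4.63% and 9.22% of endothelial cells. At a limit of 10 UMIs in 1000, high cells were 2.47% and 2.90% of neutrophils, 6.88% and 4.41% of macrophages, 1.38% and 0.991% of fibroblasts and 0% and 0.461% of endothelial cells. Without Ifi27l2a and Bst2, high cells were 6.66% and 7.94% of neutrophils, 5.74% and 5.21% of macrophages and 4.03% and 2.41% of fibroblasts. Without thinning, high cells were 7.13% and 8.36% of neutrophils, 18.4% and 13.2% of macrophages, 6.64% and 4.21% of fibroblasts and 0% in WT of endothelial cells.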

Other observations

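Plasmacytoid dendritic cells were few, 17 in WT and 10 in TG. They had the highest type I-like sum of the classes summed, at 5351 and 5418 CPM. Bst2 made up 63.5% and 80.4% of that sum, at 3399 and 4357 CPM. Irf7, on which interferon production in these cells depends, was at 95.2 and 116 CPM, and Irf8, a factor of their lineage, at 2390 and 2054 CPM. Irf1 was at 305 and 249 CPM. High cells at 5 type I-like UMIs of 1000 were 8 of 17 and 6 of 10.

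Pericytes or smooth muscle cells, 30 in WT and 135 in TG, had a GBP sum of 209.7 and 540.4 CPM, a ratio of TG over WT of 2.58. Cxcl10 was at 37.7 and 152 CPM, Cxcl9 at 14.7 and 60.6 CPM, Gbp2 at 24.6 and 78.3 CPM and Iigp1 at 26.2 and 71.7 CPM in them. Isg15 was at 110 and 165.5 CPM. Macrophages with UMIs of all 3 C1q genes, complement components that mark tissue macrophages, held 4474 and 3192 CPM of type I-like genes, against 2154 and 1487 CPM in those with none. Without Ifi27l2a and Bst2 the levels were 1644 and 1379 CPM against 991 and 774 CPM. The GBP group was at 240.4 and 167 CPM in the former and 165 and 194 CPM in the latter, so its order was not the same in both libraries. This split by C1q was chosen with the data in view.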
